A study of Homo sapiens with 9 samples.

Results

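The tubulin genes described here are 4 α-tubulin genes, TUBA1A, TUBA1B, TUBA1C and TUBA4A, and 6 β-tubulin genes, TUBB, TUBB2A, TUBB2B, TUBB3, TUBB4B and TUBB6. They were taken by symbol from single-cell count matrices of 6 libraries and from the kinetic tables that go with them. They are 10 of the 36601 genes counted, and each symbol matched 1 gene identifier. All 10 passed every filter on low values used below.

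The cells were U2OS, a line from a human osteosarcoma, in which RPB1, the catalytic subunit of RNA polymerase II, was fused to 1 of 2 protein tags. HaloTag is an enzyme modified to bind a synthetic ligand, and Dendra2 is a fluorescent protein whose colour is switched by light. Each tagged RPB1 ended in a C-terminal domain (CTD) of 25, 52 or 70 repeats, which gives the genotypes HaloTag 25R, HaloTag 52R, HaloTag 70R, Dendra2 25R, Dendra2 52R and Dendra2 70R. In all 6, including those with the 52-repeat CTD of the human protein, 6 days of α-amanitin at 1 µg per ml came before the cells were collected. This mushroom toxin is an inhibitor of RNA polymerase II. How far it acted on the tagged RPB1 in these cells was not tested. There was 1 library per genotype and no label mentions replicate cultures. In comparisons between whole libraries, errors and p-values therefore rest on the spread left after tag and CTD length are fitted. That spread has 2 residual degrees of freedom, and 1 where a library is left out. The tests pull each gene's spread toward a trend over all genes tested, so errors and p-values also borrow from other genes. They can be smaller than a gene's own libraries would give. Cell-cycle classes were compared within libraries, over 18 sums of counts. HaloTag libraries were sequenced in 2 runs and Dendra2 libraries in 1, so tag and sequencing campaign cannot be told apart.

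Tubulin is the building block of microtubules. An α and a β chain pair as a dimer, and dimers join end to end into the hollow filaments that carry cargo through the cell and form the mitotic spindle. The isotypes differ mainly in their acidic tails and in where they are made. TUBA1B, TUBA1C, TUBB and TUBB4B are made in most dividing cells, whereas TUBB3, TUBB2B and TUBA1A are best known from neurons. Cells also adjust tubulin mRNA to the amount of free dimer: the factor TTC5 binds the first residues of a nascent tubulin chain, and with SCAPER brings in the CCR4-NOT deadenylase, which leads to decay of the message.

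In GENCODE v44 on GRCh38, TUBA1B (chromosome 12, 49127782 to 49131397, minus strand), TUBA1A (49184686 to 49189080, minus strand) and TUBA1C (49188736 to 49274600, plus strand) lie in 1 cluster. TUBB2A (chromosome 6, 3153497 to 3157544, minus strand) and TUBB2B (chromosome 6, 3223324 to 3231730, minus strand) are neighbours too. The other members stand apart, TUBB at chromosome 6, 30717435 to 30725538, TUBA4A at chromosome 2, 219249710 to 219277902, TUBB3 at chromosome 16, 89921392 to 89938761, TUBB4B at chromosome 9, 137241287 to 137243707, and TUBB6 at chromosome 18, 12307669 to 12344320. The main transcript of each member has 4 exons. Reads came from 3′ ends, so it was counted how many 90-base windows in the last 500 bases of each transcript also occur in another gene. For TUBB2A, 210 of 411 windows were shared with TUBB2B, so the counts of that pair are less certain. For TUBB3, 406 of 411 windows were shared with a read-through gene that was not counted separately. The remaining members, TUBB2B from its own end included, shared 0 of 411. Every member overlaps a gene on the opposite strand, and the use of strand in counting is not stated.

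Upstream sequences are shown for the genes on which the comparison of cell-cycle phases turns: TUBB4B and TUBA1C, which differed most between phases, TUBA1B, the most abundant member, and TUBA1A, the member that ran the other way. Each is the 250 bases before an annotated start in RefSeq (GRCh38.p14), read 5′ to 3′ on the gene's strand. Capitals mark matches on either strand to the cell-cycle homology region motif TTTGAA, the CCAAT box CCAAT, the GC box GGGCGG or the TATA motif TATAAA, and matches can overlap. TUBB4B is from chr9:137241037-137241286 (plus strand), TUBA1C from start 3 of those annotated, at chr12:49264832-49265081 (plus strand), TUBA1B from chr12:49131396-49131645 (minus strand) and TUBA1A from chr12:49189081-49189330 (minus strand).
TUBB4B: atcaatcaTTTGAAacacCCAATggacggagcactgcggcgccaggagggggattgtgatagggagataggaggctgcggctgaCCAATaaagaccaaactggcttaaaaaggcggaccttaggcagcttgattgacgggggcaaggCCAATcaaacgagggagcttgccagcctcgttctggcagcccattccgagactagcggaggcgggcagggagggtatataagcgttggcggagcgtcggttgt
TUBA1C: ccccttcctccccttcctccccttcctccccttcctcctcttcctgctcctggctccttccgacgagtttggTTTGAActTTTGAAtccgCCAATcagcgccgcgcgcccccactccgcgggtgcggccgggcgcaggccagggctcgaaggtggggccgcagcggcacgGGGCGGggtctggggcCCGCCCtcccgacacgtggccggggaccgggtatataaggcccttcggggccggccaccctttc
TUBA1B: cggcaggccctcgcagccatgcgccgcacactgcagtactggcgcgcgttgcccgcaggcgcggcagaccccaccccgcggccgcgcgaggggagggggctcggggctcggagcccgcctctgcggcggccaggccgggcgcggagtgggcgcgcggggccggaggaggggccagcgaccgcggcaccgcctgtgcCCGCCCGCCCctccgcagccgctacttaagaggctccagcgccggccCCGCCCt
TUBA1A: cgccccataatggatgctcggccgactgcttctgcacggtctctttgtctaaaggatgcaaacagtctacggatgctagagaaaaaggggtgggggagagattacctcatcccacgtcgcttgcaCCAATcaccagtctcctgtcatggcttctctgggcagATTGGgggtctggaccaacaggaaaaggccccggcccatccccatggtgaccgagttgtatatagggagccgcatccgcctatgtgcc

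TTTGAA occurs at −242 before the TUBB4B start and at −178 and −170 before the TUBA1C start shown, in each case with a CCAAT box close behind it, at −232 and at −160. The other starts of TUBA1C differ: start 1 has TTTGAA at −173 and CCAAT farther off, at −104, and start 2 has CCAAT at −197 and no TTTGAA. TUBA1B has 3 GC boxes and neither of these motifs in the window, and TUBA1A has CCAAT boxes at −125 and −88. Over 35097 RefSeq start sites, windows of the same length held TTTGAA in 13.3%, CCAAT in 32.0%, GGGCGG in 42.6% and TATAAA in 10.7%. These are matches of letters, binding was not measured, and which start of TUBA1C the cells used was not tested.

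The libraries held 2718 to 4677 cells and 52553686 to 58442223 UMIs each (unique molecular identifiers, 1 per captured molecule). Pairs of libraries shared 0 to 7 cell barcodes. The labels call the cells epithelial, and marker levels were read as CPM, counts per 1000000 UMIs. CDH1, KRT19, ESRP1 and ELF3, 4 of 8 epithelial markers, were under 1 CPM in every library. KRT8 and KRT18 stood at 144 to 551 and 699 to 1266, EPCAM at 0.221 to 7.65 and CLDN4 at 0.737 to 8.56. Of 8 mesenchymal markers, 6 reached 1 CPM in every library, with VIM at 2554 to 3784. COL1A2 stayed under 1 in every library, and ALPL stood at 0.466 to 5.20, under 1 in Dendra2 25R and Dendra2 70R. Of 8 neuronal markers, looked at because several tubulins are best known from neurons, DCX, ELAVL3, ELAVL4 and INA were under 1 in every library. NEFL, a neurofilament gene, stood at 33.4 to 152 and RBFOX3 at 1.88 to 38.8, and both were highest in HaloTag 25R. SYT1 stood at 2.54 to 4.96 and SNAP25 at 2.56 to 6.77. The summed neuronal markers stood at 43.6 to 201 in HaloTag and 94.7 to 112 in Dendra2 libraries. The summed leukocyte markers lay between 1.38 and 18.4. The part of other cell types in the results below was not tested.

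Levels are given as CPM after being scaled by TMM (the trimmed mean of M values) with factors of 0.944 to 1.05. Each UMI counts 1 captured 3′ end whatever the transcript's length, so levels of different genes can be set side by side. Values for single libraries follow the order 25R, 52R, 70R within each tag unless stated otherwise. TUBA1B was the most abundant member, with 1814, 1593 and 1741 CPM under HaloTag against 1288, 1968 and 1935 under Dendra2. TUBB followed with 1068, 1084 and 1100 CPM in HaloTag and 1358, 1340 and 1222 CPM in Dendra2 libraries. The libraries of these leading genes overlapped in level. TUBB4B (467 to 904 CPM) lay below every TUBB value, overlapped TUBA1C (528 to 746 CPM), and both lay above every TUBB6 value (153 to 301 CPM). TUBA1A (77.3 to 198 CPM), TUBB3 (78.6 to 204), TUBA4A (26.3 to 83.3), TUBB2B (13.3 to 126) and TUBB2A (33.1 to 61.3) came next by mean level, each overlapping its neighbour in that order. Levels were steadiest for TUBB, whose highest library was 1.27 times its lowest, and most variable for TUBB2B, where that ratio was 9.53.

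**Figure D1:**
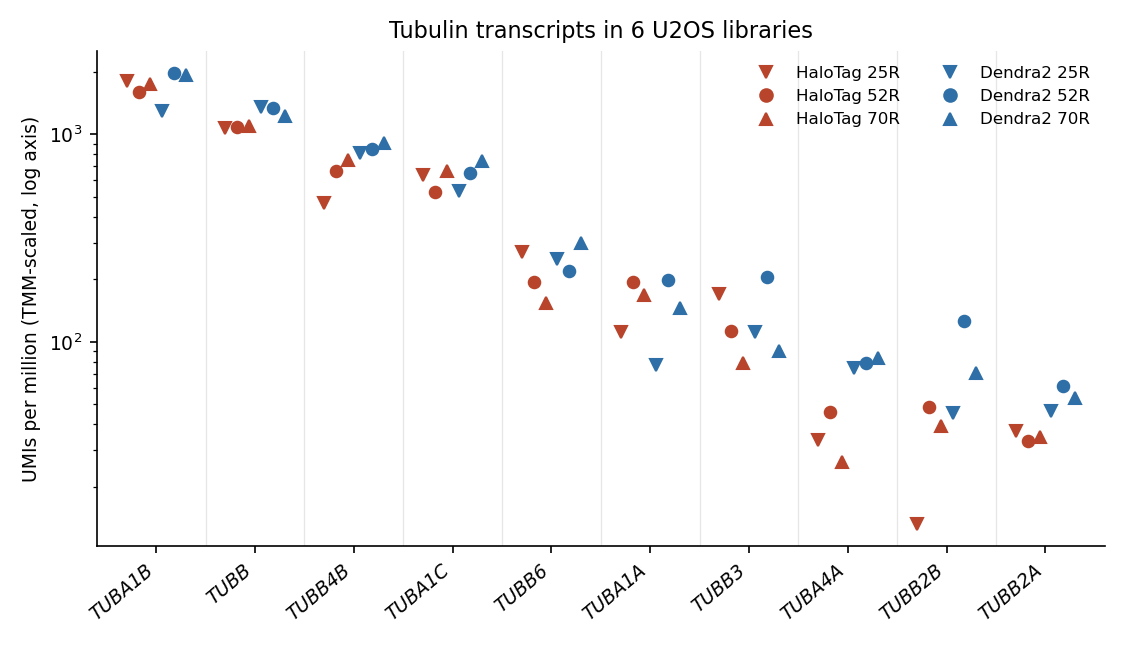
Level of each tubulin gene (TMM-scaled CPM, log axis) in each of the 6 libraries, ordered by mean level. Each point is 1 library, with colour for the tag and shape for the CTD length. TUBA1B and TUBB stand between 1068 and 1968, while TUBB2B runs from 13.3 in HaloTag 25R to 126 in Dendra2 52R.

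The α and β pools are here the UMIs of the 4 α and the 6 β members alone. Other tubulin genes are left out, among them TUBA3C, which had 5480 to 8365 UMIs per library against 1465 to 4428 for TUBA4A. By the ratio of the highest to the lowest library, the shares of TUBA1B, TUBB and TUBA1C in the α and β pools varied least and that of TUBB2B most. TUBA1B gave 65.4% to 70.0% of the α pool and TUBA1C 22.4% to 26.9%. TUBB gave 46.2% to 52.7% of the β pool and TUBB4B 23.1% to 34.9%, with the lowest TUBB4B share in HaloTag 25R. TUBB2B gave 0.654% of the β pool in HaloTag 25R (exact 95% interval 0.609 to 0.701) and 4.51% in Dendra2 52R (4.40 to 4.62). TUBA4A gave 1.01% to 1.95% of the α pool in HaloTag and 2.74% to 3.80% in Dendra2 libraries. No exact 95% interval of a share was wider than 0.597 percentage points, and these intervals cover counting error only. All members together took 0.469%, 0.474% and 0.488% of UMIs under HaloTag and 0.433%, 0.554% and 0.550% under Dendra2. The ratio of the α pool to the β pool was 1.28, 1.10 and 1.20 in HaloTag and 0.751, 1.03 and 1.10 in Dendra2 libraries. Dendra2 25R was thus the library with more β than α in these pools.

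HaloTag libraries were compared with Dendra2 libraries at matched CTD length to see how the choice of tag goes with tubulin levels. No member passed the test (edgeR quasi-likelihood, adjusted p under 0.05 over 18761 genes), where 0.267% of all genes passed (50 genes, 21 of them higher in HaloTag, and 71 with 41 higher when scaled by library totals). In this fit 8 of 10 members lay below 0, with a median log2 difference of −0.31 against 0.03 for all genes tested, and 4 members had an unadjusted p under 0.05, as did 19.5% of all genes. DESeq2 called 3 members lower in HaloTag (TUBB2B, TUBA4A and TUBB2A), against 6.17% of all genes.

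TUBB2B measured 13.3, 48.4 and 39.3 CPM under HaloTag against 45.5, 126 and 70.6 under Dendra2. The HaloTag library was the lower one at each CTD length, but HaloTag 52R was above Dendra2 25R, so the groups overlapped. The log2 difference was −1.33 ± 0.20 (SE; edgeR adjusted p = 0.0731), and the adjusted p ran from 1.99e-07 to 0.352 over the alternatives. Leaving out Dendra2 25R gave 0.0484, leaving out Dendra2 70R 0.0181 and leaving out HaloTag 70R 0.0213, in fits that called 0.763%, 0.447% and 0.41% of all genes. The fits without a 70R library draw this tag difference from the same 25R and 52R libraries, so they are not separate checks. TUBA4A is an α isotype best known from muscle and platelets. It stood at 33.5, 46.1 and 26.3 CPM in HaloTag and at 74.9, 79.4 and 83.3 CPM in Dendra2 libraries, with no overlap. Its log2 difference was −1.20 ± 0.19 (SE; edgeR adjusted p = 0.0841, with 2.43e-06 to 0.232 over the alternatives).

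TUBB4B, the β isotype of cilia and of dividing cells, stood at 467, 666 and 755 CPM in HaloTag and at 809, 850 and 904 CPM in Dendra2 libraries (−0.47 ± 0.15, edgeR adjusted p = 0.179). TUBB2A stood at 33.1 to 37.0 and 46.7 to 61.3 CPM (−0.62 ± 0.15, edgeR adjusted p = 0.136), and TUBB at 1068 to 1100 and 1222 to 1358 CPM (−0.27 ± 0.12, edgeR adjusted p = 0.277). With TUBA4A, these are the 4 members whose HaloTag libraries all lay below all Dendra2 libraries, an order that 11.5% of all genes tested had. The other members differed by −0.34 (TUBB6) to 0.23 (TUBA1A), with edgeR adjusted p from 0.414 to 0.979. TUBA1B, at 0.01 ± 0.18, was higher in HaloTag at 25R and lower at 52R and 70R.

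**Figure D2:**
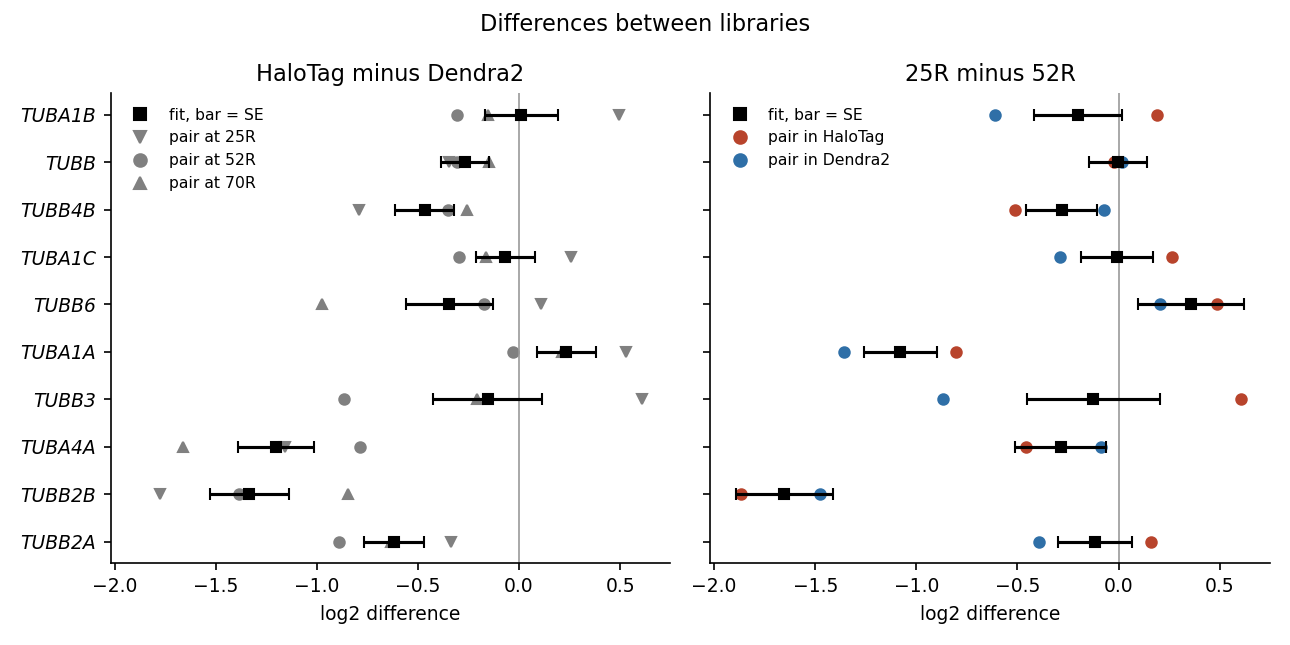
Log2 difference of each tubulin gene between tags (left) and between the 25-repeat and the 52-repeat CTD (right). Black squares are the fitted value with its SE and smaller points are the single pairs of libraries. TUBB2B and TUBA4A are lowest on the left (−1.33 and −1.20), and TUBB2B and TUBA1A on the right (−1.65 and −1.08).

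The short CTD was compared with the 52-repeat CTD, and the long CTD with both, within each tag. None of the 10 members passed the edgeR test between 25R and 52R, where 8 genes (0.0426%) passed, nor in the comparisons of 70R with 52R and with 25R, where 0 of 18761 genes (0.0%) passed. Unadjusted, 2, 1 and 2 members had a p under 0.05, against 13.0%, 4.65% and 12.4% of all genes. DESeq2 called TUBB2B and TUBA1A lower in 25R than in 52R (2.7% of all genes) and higher in 70R than in 25R (2.49%), and no member between 70R and 52R (0.368%).

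TUBB2B was lowest in the 25R library of each tag and highest in the 52R library, by the CPM given above. Its log2 difference between 25R and 52R was −1.65 ± 0.24 (edgeR adjusted p = 0.174), and over the alternatives its adjusted p ran from 4.22e-07 to 0.806. Leaving out Dendra2 25R gave 0.016, leaving out Dendra2 70R 0.0139 and leaving out HaloTag 70R 0.0148, in fits that called 3.93%, 0.879% and 0.632% of all genes. The fits without a 70R library draw this difference from the same 25R and 52R libraries, so they are not separate checks. TUBA1A, the main α isotype of developing neurons, had the same order as TUBB2B. It stood at 111, 194 and 169 CPM under HaloTag against 77.3, 198 and 146 under Dendra2. It differed by −1.08 ± 0.18 between 25R and 52R (edgeR adjusted p = 0.195, with 0.000259 to 0.861 over the alternatives and 0.0499 without Dendra2 70R). Between 70R and 25R, TUBA1A differed by 0.75 ± 0.18 and TUBB2B by 1.10 ± 0.24 (adjusted p = 0.261 and 0.243). Without Dendra2 25R, TUBB2B and TUBB3 passed in that comparison (adjusted p = 0.0319 and 0.0401), as did 746 of 19919 genes (3.75%). TUBB2B and TUBA1A were thus lower in 25R than in 52R in 2 of 2 pairs of libraries, and did not pass over all genes.

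TUBB3, the β isotype used as a marker of neurons, had no common order. Its values were 171, 112 and 78.6 CPM under HaloTag against 112, 204 and 90.7 under Dendra2, lowest in 70R under both tags and highest in a different CTD length under each. Its log2 difference between 70R and 52R was −0.88 ± 0.33 (edgeR adjusted p = 0.96). TUBB6 stood at 271, 194 and 153 CPM in HaloTag and at 252, 219 and 301 CPM in Dendra2 libraries, so its 70R library was the lowest under 1 tag and the highest under the other. The remaining members differed between CTD lengths by −0.36 to 0.42 in the fits.

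Cells were then assigned within each library to G1-like, S-like and G2/M-like classes, by scores of 43 S-phase and 53 G2/M genes that include no tubulin, after each cell had been thinned to 5000 UMIs. A class is a range of a score, not a cell type: 12.5% to 21.7% of cells lay within 0.05 of a boundary, and 34 to 217 cells per library were too shallow to be classed. The median UMIs per cell were 9087 to 14956 in G1-like and 13358 to 21322 in G2/M-like cells. Counts were summed per library and class, and libraries were the replicates.

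Most tubulin transcripts were higher in G2/M-like than in G1-like cells. Of the 10 members, 8 rose, TUBA1A fell and TUBB3 did not pass (edgeR, adjusted p under 0.05). Over all 16699 genes tested, 62.1% passed, 31.3% rising and 30.9% falling. The median member differed by 0.73 on the log2 scale, against −0.02 over all genes. TUBB4B rose most, from 227, 177 and 236 CPM in G1-like HaloTag cells to 634, 1174 and 1316 in the G2/M-like ones. Under Dendra2 it went from 454, 375 and 441 CPM up to 969, 1063 and 1136. Every G2/M-like value lay above every G1-like value. The log2 difference was 1.78 ± 0.14 (edgeR adjusted p = 1.4e-09), which ranked 221st of 16699 genes from the top.

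TUBA1C rose by 1.45 ± 0.11 (edgeR adjusted p = 4.42e-10), with 205 to 421 CPM in G1-like and 633 to 1120 CPM in G2/M-like cells. TUBA1B rose by 1.19 ± 0.10 (adjusted p = 3.9e-09), from 629 to 1239 CPM up to 1408 to 2539 CPM, and TUBB by 1.01 ± 0.07 (adjusted p = 2.21e-10), from 566 to 942 CPM up to 1237 to 1542 CPM. These are the isotypes of dividing cells, and each was higher in G2/M-like cells in 6 of 6 libraries. The rarer β isotypes TUBB6 (0.76 ± 0.05), TUBB2B (0.70 ± 0.05) and TUBB2A (0.62 ± 0.09) and the α isotype TUBA4A (0.69 ± 0.07) rose less, also in 6 of 6 libraries, with edgeR adjusted p from 1.11e-10 to 8.09e-06. TUBB3 differed by 0.04 ± 0.04 (adjusted p = 0.354), with 73.5 to 194 CPM in G1-like and 84.5 to 209 CPM in G2/M-like cells. The members' total stood at 2100 to 3510 CPM in G1-like, 4424 to 5592 in S-like and 5131 to 7097 CPM in G2/M-like cells.

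In S-like against G1-like cells 8 members rose and TUBA1A fell as well. Over all genes 54.3% passed, 27.4% rising and 26.9% falling. TUBB4B (1.02 ± 0.14), TUBA1B (1.00 ± 0.10) and TUBB (0.77 ± 0.07) led. TUBB2B rose by 0.70 ± 0.06, as much as in G2/M-like cells, while TUBA1C rose by 0.64 ± 0.11. TUBB2A rose by 0.24 ± 0.10 (edgeR adjusted p = 0.0473, with 0.000156 to 0.197 over the alternatives), a call lost with DESeq2 (8 members and 49.9% of all genes called), with scaling by library totals (0.0555) and without any 1 library other than HaloTag 25R. TUBB3 differed by 0.01 ± 0.04 (adjusted p = 0.844).

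**Figure D3:**
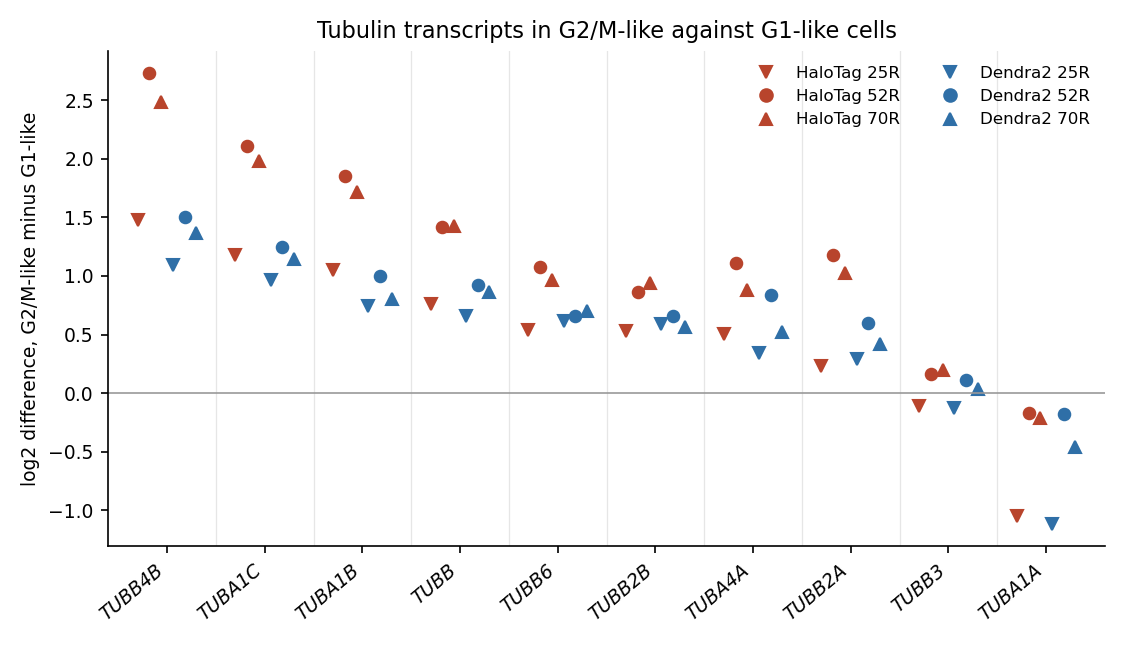
Log2 difference between G2/M-like and G1-like cells for each tubulin gene in each of the 6 libraries, ordered by the fitted difference. Each point is 1 library. TUBB4B lies between 1.10 and 2.73, TUBB3 between −0.13 and 0.20, and TUBA1A between −1.12 and −0.17.

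The size of the rise was compared between tags with an interaction of tag and phase. It was larger in HaloTag libraries for TUBB4B (interaction 0.93 ± 0.17 on the log2 scale, edgeR adjusted p = 0.00145), TUBA1B (0.70 ± 0.12, 0.000494), TUBA1C (0.65 ± 0.14, 0.00507) and TUBB (0.40 ± 0.11, 0.0274). These are 4 of 10 members, against 4.17% of 17186 genes. TUBB4B rose by 1.48, 2.73 and 2.48 under HaloTag against 1.10, 1.50 and 1.36 under Dendra2. TUBA1B rose by 1.05, 1.85 and 1.72 in HaloTag and by 0.75, 1.00 and 0.80 in Dendra2. HaloTag 25R was the HaloTag library nearest the Dendra2 range. It lay within that range for TUBB4B, TUBA1C and TUBB, and HaloTag 52R and 70R lay above it for all 4 genes.

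These calls changed with the cells and libraries used. Without cells near a score boundary no member passed, where 98 of all genes did, and the interaction was 0.61 for TUBB4B (edgeR adjusted p = 0.16), 0.47 for TUBA1B (0.138), 0.34 for TUBA1C (0.402) and 0.15 for TUBB (0.739). These are the highest adjusted p of the 4 genes over the alternatives, and the lowest, without a filter on low counts, ran from 9.74e-72 to 5.71e-15. Errors in fits of phase classes were much smaller with no such filter. For G2/M-like against G1-like cells they were 0.0234 for TUBA1B and 0.0385 for TUBA1A, against 0.103 and 0.0965 with it. P-values of such fits are not taken here as a measure of the spread between libraries. Without HaloTag 25R, 9 members passed, with 1.28 for TUBB4B, where 7.08% of all genes did. Without HaloTag 52R or HaloTag 70R only TUBA1B and TUBB4B passed (2.48% and 2.42% of all genes), as with DESeq2 (3.64%). The call of TUBB was also lost without Dendra2 25R or Dendra2 70R. G1-like cells were 39.3% to 42.4% of HaloTag and 18.2% to 25.0% of Dendra2 cells, and cells near a boundary were 12.5% to 16.4% and 16.7% to 21.7%. The part of these shares in the interaction was not tested. In G1-like cells TUBB4B was lower in all HaloTag (177 to 236 CPM) than in all Dendra2 libraries (375 to 454 CPM), and in G2/M-like cells HaloTag 52R and 70R were above all Dendra2 libraries. In a fit of G1-like cells alone, TUBB4B differed between tags by −0.97 ± 0.13 and TUBB2B by −1.30 ± 0.17 (edgeR adjusted p = 0.0456 for each), 2 of 10 members against 0.35% of 15729 genes.

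TUBA1A was the member with the opposite course. In HaloTag 25R it fell from 163 CPM in G1-like to 78.7 in G2/M-like cells, and in Dendra2 25R from 138 to 63.9. The 52R libraries went from 214 to 191 CPM under HaloTag and 226 to 200 under Dendra2, and the 70R libraries from 189 to 164 and 187 to 136. All 6 libraries were lower in G2/M-like cells (−0.52 ± 0.10, edgeR adjusted p = 9.05e-05), and the log2 differences of the 25R libraries, −1.05 and −1.12, lay apart from those of the others, −0.46 to −0.17.

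An interaction of CTD length and phase, added after these TUBA1A values had been seen, gave −0.91 ± 0.09 for TUBA1A between 25R and 52R (edgeR adjusted p = 0.00058). It was the 1 gene of 17186 (0.00582%) that passed, and DESeq2 called 5 genes (0.0291%), TUBA1A among them (adjusted p = 2.43e-10). Without HaloTag 25R the interaction was −0.95 and its adjusted p was 0.0565, the highest over the alternatives, where the lowest was 3.39e-17. In G1-like cells alone, TUBA1A differed between 25R and 52R by −0.55 ± 0.17 (edgeR adjusted p = 0.295). The other 9 members had interactions from −0.84 to −0.20, and none of them passed. Of all 10 members 8 had an unadjusted p under 0.05, against 6.97% of all genes.

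**Figure D4:**
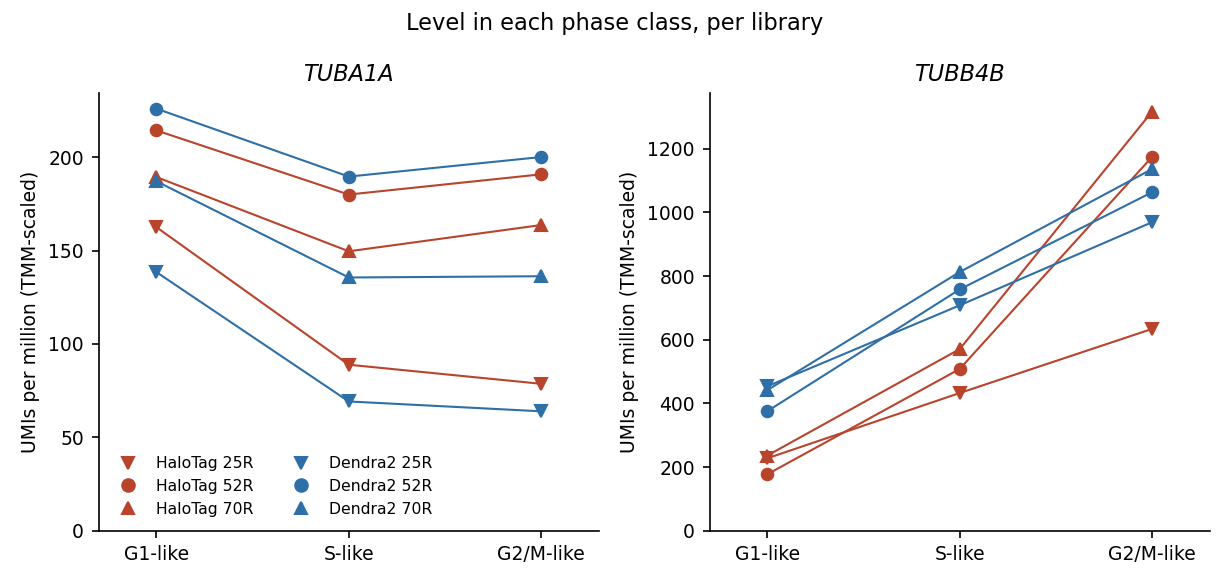
Level of TUBA1A (left) and TUBB4B (right) in G1-like, S-like and G2/M-like cells (TMM-scaled CPM, linear axes from 0). Each line is 1 library. TUBA1A drops to 78.7 and 63.9 in G2/M-like cells of the 25R libraries and stays at 136 to 200 in the others, while TUBB4B climbs in every library, to 634 in HaloTag 25R and to 969 to 1316 in the others.

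The authors' deposited tables give for each gene and library a mean, a burst frequency (the parameter K of a beta-Poisson fit, in its own unit) and a squared coefficient of variation. Transcription occurs in bursts, and in such models frequency sets how often a gene fires and size how many transcripts each burst adds. In the authors' deposited table, TUBA1B had frequencies of 1.54, 0.948 and 0.903 under HaloTag against 1.91, 1.91 and 1.74 under Dendra2. TUBB4B had 1.33, 0.669 and 0.668 in HaloTag and 1.54, 1.48 and 1.33 in Dendra2 libraries in that table. The HaloTag 52R and 70R values lay apart from the rest for both genes, and HaloTag 25R was nearer to, or level with, the Dendra2 values.

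Tested on the log10 scale (limma, over the 4355 genes whose mean reached 0.5), frequency was lower with HaloTag for TUBB4B (−0.24 ± 0.05, limma adjusted p = 0.000676), TUBA1B (−0.23 ± 0.05, 0.000677) and TUBB2B (−0.28 ± 0.07, 0.00264). These are 3 of 10 members, against 5.65% of genes called in either direction and 4.59% called lower. TUBB2B had frequencies of 0.411, 0.793 and 1.16 in HaloTag and of 1.08, 1.89 and 1.29 in Dendra2 libraries in the authors' deposited table. Its means in the authors' deposited table were 0.225, 0.742 and 0.467 in HaloTag and 0.728, 2.36 and 1.39 in Dendra2 libraries. The filter of 0.5 took the mean over the 6 libraries, and HaloTag 25R and HaloTag 70R lay under it. The TUBB2B call was therefore not independent of the filter. TUBA1C (−0.14 ± 0.05, adjusted p = 0.0891) and TUBB (−0.12 ± 0.05, 0.161) had the same pattern as TUBA1B, with 0.904 to 0.967 and 1.40 to 1.48 in HaloTag 52R and 70R and 1.51 to 1.71 and 2.07 to 2.48 in the other libraries. For TUBA1A the log10 difference was 0.06 ± 0.05 (adjusted p = 0.635), and its deposited frequencies were lowest in the 25R libraries, 1.33 and 0.967, and 1.68 to 2.17 elsewhere. The remaining members differed by −0.17 to −0.01 and did not pass.

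The frequency calls moved with the choice of libraries and genes. Leaving out the HaloTag or the Dendra2 library of a CTD length gave the same tag differences in frequency and size. Such fits are therefore not separate checks. With a 52R library left out no member passed, where 2.32% (HaloTag) and 2.23% (Dendra2) of all genes did. With a 70R library left out only TUBB2B passed, beside 1.24% and 1.31% of all genes. With a 25R library left out TUBA1B, TUBB4B, TUBA1C, TUBB, TUBB2A and TUBA4A passed, beside 8.96% and 8.54% of all genes. Over all 36541 genes with finite values no gene passed the limma test, 2091 had an unadjusted p under 0.05, and with each library centred on its median 5 members passed, all lower (7.97% of genes, 5.53% lower). The sources used here state no depth scaling of the kinetic values, and median UMIs per cell were 16020, 13567 and 10812 under HaloTag against 15770, 18256 and 18739 under Dendra2. In the deposited values the squared coefficient of variation follows from the frequency and the mean, so it is no separate evidence. It also grows as a gene's cells diverge in level. For TUBB4B it was 0.875, 1.59 and 1.61 in HaloTag and 0.725, 0.737 and 0.810 in Dendra2 libraries in the authors' deposited table. In counts thinned to 5000 UMIs per cell, the variance of TUBB4B was 2.18, 3.85 and 3.997 times its mean in HaloTag and 1.94, 2.31 and 2.53 times in Dendra2 libraries. That ratio was highest in HaloTag 52R and 70R. It measures spread in the same libraries, so it is no separate evidence either.

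Burst size, the deposited mean divided by the deposited frequency, was lower with HaloTag for TUBA4A (−0.30 ± 0.09 on the log10 scale, limma adjusted p = 0.0198), 1 of 10 members against 13.4% of genes, 13.0% called lower. From the authors' deposited table, TUBA4A had sizes of 0.339, 0.977 and 0.329 UMIs in HaloTag and 0.853, 0.952 and 1.08 in Dendra2 libraries, so HaloTag 52R lay within the Dendra2 range. The call was lost with any 1 library left out. Without HaloTag 70R or Dendra2 70R the member that passed was TUBA1B, higher with HaloTag by 0.20 in each case, where 5.65% and 5.03% of all genes passed. After each library was centred on its median, TUBA4A no longer passed (adjusted p = 0.222) and TUBA1B was higher with HaloTag (0.25, adjusted p = 0.0293), where 2.39% of genes passed, 1.17% called higher. TUBA1B sizes from the authors' deposited table were 20.1, 25.8 and 22.9 UMIs in HaloTag and 10.8, 19.3 and 21.8 in Dendra2 libraries, lowest in Dendra2 25R.

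**Figure D5:**
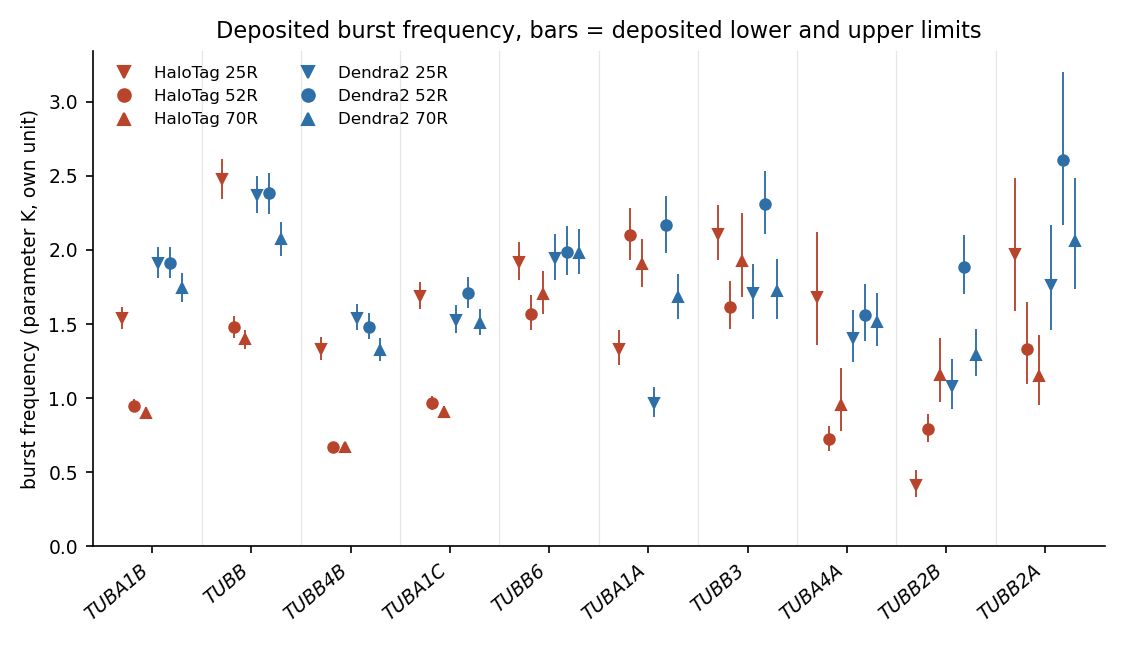
Burst frequency of each tubulin gene in each library, from the authors' deposited table, with its deposited lower and upper limits as bars. For TUBA1B, TUBB, TUBB4B and TUBA1C the HaloTag 52R and 70R points lie below the other 4 libraries, and for TUBA1A both 25R points are the lowest.

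Across cells of a library, the abundant isotypes varied together. Over 2662 to 4460 thinned cells per library, the Pearson correlation with TUBA1B (log counts) was 0.43 to 0.66 for TUBB4B, 0.42 to 0.66 for TUBB and 0.37 to 0.58 for TUBA1C. Ranked by the lowest value in the 6 libraries, these were ranks 1, 2 and 4 among all genes. The histone variant gene H2AFZ (0.39 to 0.69) had rank 3, followed by HMGB1, RAN, ACTB, UBE2S, RANBP1 and HSP90AA1, whose lowest values were 0.28 to 0.33. Within G1-like cells alone, TUBA1B still correlated with TUBB at 0.44 to 0.63 and with TUBB4B at 0.32 to 0.55. TUBB6 (0.12 to 0.26), TUBA4A, TUBB2A, TUBB2B and TUBB3 (0.03 to 0.19 together) were weakly related to TUBA1B. TUBA1A ran from −0.19 in HaloTag 25R to 0.04. The cells of a library share its preparation and, after thinning, the same depth, and low counts pull a correlation toward 0.

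Genes that make, modify or use tubulin were read from lists. In the 4 comparisons between libraries no listed gene passed the edgeR test. The lists held 8 other tubulins that could be tested, 14 chaperonin and prefoldin genes, 7 entries for tubulin cofactors (TBCE has 2 identifiers), 9 autoregulation genes, 15 modification genes, 23 microtubule-binding genes and 13 nucleation genes. Between tags, 5 of the 14 chaperonin and prefoldin genes, 3 of 15 modification and 2 of 23 microtubule-binding genes had an unadjusted p under 0.05, as did 1 other tubulin and 1 cofactor entry, against 19.5% of all genes. DESeq2 called 3 chaperonin and prefoldin genes, 1 modification gene and 1 microtubule-binding gene there, against 6.17% of all genes. Between 25R and 52R, 5 microtubule-binding and 3 modification genes, and 1 each of the other tubulins, the chaperonin and the nucleation lists, had such a p (13.0% of all genes), and DESeq2 called 0 (2.7%). In the comparisons of 70R with 52R and with 25R, 0 to 4 genes of a list had such a p (4.65% and 12.4% of all genes), and DESeq2 called 1 other tubulin in each and 0 of the rest (0.368% and 2.49%). Between G2/M-like and G1-like cells, where 62.1% of all genes passed, 12 of the 14 chaperonin and prefoldin genes did, 11 rising and 1 falling, with a median of 0.34. The largest were CCT5 (0.55 ± 0.04) and CCT6A (0.52 ± 0.03), subunits of the ring in which tubulin folds, and VBP1 (0.49 ± 0.04), a prefoldin subunit. Of the 7 cofactor entries, TBCD rose (0.43 ± 0.05) and 1 of the TBCE entries fell (−0.18 ± 0.07).

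Of 9 autoregulation genes 7 rose and 0 fell, led by the deadenylase subunit genes CNOT1 (0.41 ± 0.05), CNOT3 (0.35 ± 0.05) and CNOT6L (0.33 ± 0.06). TTC5, the factor that binds the emerging tubulin chain, had the lowest value of that list (−0.14) and did not pass. Between S-like and G1-like cells, where 54.3% of all genes passed, 4 of the 9 rose, led by CNOT6L (0.41 ± 0.07) and SCAPER (0.38 ± 0.06), and TTC5 fell (−0.27 ± 0.07, edgeR adjusted p = 0.00343). The counts and values in the rest of this paragraph are again for G2/M-like against G1-like cells. Of 15 modification genes 7 rose and 5 fell, among them the glutamylase TTLL4 (0.65 ± 0.09) and the detyrosinating enzymes VASH2 (0.56 ± 0.19) and VASH1 (−0.53 ± 0.18). Of 13 nucleation genes 10 rose and 1 fell, led by MZT1 (1.48 ± 0.08), a small subunit of the γ-tubulin ring, and the centrosome genes PCNT (1.26 ± 0.07) and CDK5RAP2 (1.16 ± 0.08). Of 23 microtubule-binding genes 14 rose and 4 fell. KIF2C (3.92 ± 0.18) and CKAP5 (1.81 ± 0.07) led them but belong to the list that set the classes, and the severing enzyme gene KATNA1 (1.03 ± 0.06) came next. Among 6 other tubulins tested 4 rose and 1 fell, with TUBA3C (1.84 ± 0.15), TUBG1, the γ-tubulin of microtubule nucleation (0.99 ± 0.10), and TUBD1 (0.92 ± 0.06) leading.

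The larger rise in HaloTag libraries was also called for a few listed genes. Of all 17186 genes 716 (4.17%) were called, and 98 of 16723 without cells near a score boundary. Of 14 chaperonin and prefoldin genes, CCT5 (interaction 0.26 ± 0.06, edgeR adjusted p = 0.00587) and VBP1 (0.26 ± 0.06, 0.0111) were called. Of 23 microtubule-binding genes, STMN1, which binds free tubulin dimers (0.58 ± 0.06), and KIF2C were called. KIF2C belongs to the list that set the classes. Of 13 nucleation genes, TUBG1 (0.56 ± 0.15, 0.0245), MZT2B (0.22 ± 0.05) and MZT2A (0.20 ± 0.05) were called. Of 6 other tubulins, TUBA3C (1.02 ± 0.18, 0.00106) and TUBG1 were called. No gene of the cofactor, autoregulation or modification lists passed in that comparison (unadjusted p under 0.05 in 0, 0 and 2, against 14.1% of all genes, DESeq2 0). No listed gene passed in the interaction of CTD length and phase with edgeR or DESeq2, and 0 to 4 genes of a list had an unadjusted p under 0.05, against 6.97% of all genes.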

How the data were processed

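Single-cell 3′ RNA-seq counts of 6 libraries (9 labelled samples, since HaloTag libraries were sequenced in 2 runs that the submitters treated as 1 sample) were used. The deposited counts are UMIs per gene and cell. The submitters' processing notes name bcl2fastq, GRCh38 and Cell Ranger without a version, and per the file headers the matrices come from Cell Ranger 6.1.2. The deposited kinetic values are scores in the unit of the authors' beta-Poisson fit, with no depth scaling stated in the sources used here.

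Barcodes under 500 genes or over 20% mitochondrial UMIs were dropped, which removed 2.01% to 3.03% of barcodes. Median UMIs per cell were 10812 to 18739. No doublet caller was run. Counts were summed per library, or per library and phase class, and tested with edgeR 4.0.16 (quasi-likelihood, TMM, Benjamini-Hochberg over all genes) with tag and CTD length as terms, or library and phase class for the class sums. DESeq2 1.42.0 was an alternative. Log10 kinetic values were tested with limma 3.58.1 (R 4.3.3) where the mean over the 6 libraries reached 0.5. Phase scores used thinned cells and 50 control genes from each of 25 expression bins, detected in at least 1% of cells. Tests were checked on simulated data. Locations came from GENCODE 44.

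Members and gene lists were chosen with earlier results of these data known. Named genes were the 10 members, up to 3 called genes per list by size of change, and the 10 genes most like TUBA1B by the lowest of 6 within-library correlations. Alternatives were DESeq2, other scaling, no filter, all barcodes, G1-like cells only, no cells near a score boundary, and each library left out. All confidence intervals are exact binomial.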

Additional observations from a re-analysis of the deposited data

Results flagged for a closer look

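The change of TUBA1A from G1-like to G2/M-like cells differed between 25R and 52R libraries by −0.91 on the log2 scale, in an interaction chosen after its values were seen. The rise toward G2/M-like cells was larger in HaloTag than in Dendra2 libraries by 0.93 for TUBB4B, 0.70 for TUBA1B, 0.65 for TUBA1C and 0.40 for TUBB on the log2 scale.

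For 2 further genes the direction was opposite under the 2 tags, with 1 library on each side, and the difference was not tested. TUBB3 differed between 25R and 52R by 0.61 under HaloTag and by −0.87 under Dendra2. TUBB6 differed between 70R and 52R by −0.34 under HaloTag and by 0.46 under Dendra2.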

How the results depend on the processing

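The count of members called between tags, 0, was 3 with DESeq2, 2 in G1-like cells only, 2 with no filter on low counts and 0 to 1 without 1 library. Between 25R and 52R (0) it was 2 with DESeq2, 2 with no filter and 0 to 2 without 1 library, and between 70R and 25R (0) it was 2 with DESeq2 and 0 to 2 without 1 library. For the interaction of tag and phase (4) it was 2 with DESeq2, 0 without cells near a score boundary and 2 to 9 without 1 library. For CTD length and phase (1) it was 7 with no filter, 2 without cells near a boundary and 0 to 1 without 1 library. The 7 comes from a fit of phase classes with no filter, a kind of fit whose small errors are described above. For burst frequency (3) it was 0 over all genes with finite values, 5 with libraries centred and 0 to 6 without 1 library. For burst size (1) it was 0 over all genes (limma, with 2308 genes at an unadjusted p under 0.05) and 0 to 1 without 1 library, where the 1 was TUBA1B, higher, and not TUBA4A. Over all genes edgeR called 50 and DESeq2 1158 between tags, 8 and 507 between 25R and 52R, 0 and 69 between 70R and 52R, 0 and 467 between 70R and 25R, and 1 and 5 for CTD length and phase. With no filter edgeR called 327, 104, 2, 50 and 234 genes in these comparisons. Without cells near a boundary it called 24 for CTD length and phase, and 98 instead of 716 for tag and phase. Centring moved the genes called for burst size from 585 to 104. Scaling by library totals moved the median of all genes between tags from 0.03 to 0.12.

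Small differences turned sign. Between tags TUBA1B was −0.0028 with DESeq2 or its size factors, −0.36 in G1-like cells and −0.0159 with no filter, and TUBA1C was 0.0207 with library totals. In G1-like cells only, 25R against 52R gave 0.21 for TUBA1B, 0.40 for TUBA1C, 0.0894 for TUBA4A, 0.30 for TUBB, 0.30 for TUBB2A, 0.0246 for TUBB3 and 0.31 for TUBB4B, 70R against 52R gave 0.0543 for TUBB2A, and 70R against 25R gave −0.0409 for TUBA1C, −0.24 for TUBB2A and −0.0024 for TUBB4B. TUBB was 0.0001 between 25R and 52R with DESeq2 or its size factors. TUBB3 in S-like against G1-like cells was −0.008 with DESeq2, −0.0038 with library totals, −0.0029 with no filter and −0.0306 without cells near a boundary. Centred burst size was 0.0271 for TUBA1A and 0.0555 for TUBB (log10). The causes were not tested.

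Without 1 library, 26 of 170 results turned sign, with these ranges. For 25R against 52R they ran from −0.59 to 0.16 for TUBA1B, −0.27 to 0.24 for TUBA1C, −0.58 to 0.0423 for TUBA4A, −0.0487 to 0.0451 for TUBB, −0.34 to 0.11 for TUBB2A, −0.73 to 0.44 for TUBB3 and −0.0215 to 0.68 for TUBB6. For 70R against 25R they ran from −0.11 to 0.64 for TUBA1B, −0.44 to 0.24 for TUBA4A, −0.14 to 0.0438 for TUBB, −0.16 to 0.28 for TUBB2A and −0.75 to 0.19 for TUBB6. For 70R against 52R they ran from −0.17 to 0.30 for TUBA1B, −0.15 to 0.0386 for TUBB, −0.26 to 0.14 for TUBB2A, −0.0289 to 0.29 for TUBB4B and −0.40 to 0.53 for TUBB6. For G2/M-like against G1-like cells they ran from −0.0080 to 0.0718 for TUBB3. For S-like against G1-like cells they ran from −0.0356 to 0.0374 for TUBB3. For burst frequency (log10) they ran from −0.0532 to 0.0698 for TUBB3. For burst size (log10) they ran from −0.0736 to 0.0774 for TUBB4B and −0.24 to 0.0151 for TUBB6. For tag and phase they ran from −0.12 to 0.35 for TUBA1A. Between tags they ran from −0.25 to 0.16 for TUBA1B, −0.25 to 0.0391 for TUBA1C and −0.56 to 0.19 for TUBB3. 

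No paired analysis by replicate number was possible because each genotype has 1 library. Libraries were matched by the design instead, with CTD length as a term in comparisons of tags, tag as a term in comparisons of CTD length, and the library as a term in comparisons of phase classes.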

Other observations

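Among the other tubulin genes, TUBA3E and TUBA3D were nearly absent from both 70R libraries. TUBA3E had 50, 46 and 1 UMIs in HaloTag 25R, 52R and 70R and 47, 56 and 0 UMIs in the Dendra2 libraries. TUBA3D had 9, 22 and 1 UMIs in HaloTag and 15, 30 and 0 UMIs in Dendra2 libraries. The related gene TUBA3C had 6859, 7378 and 6976 UMIs in HaloTag and 5480, 8365 and 7368 UMIs in Dendra2 libraries, with no such gap. The genes are near-identical copies, so the split of reads among them is uncertain. Between 70R and 52R the edgeR adjusted p was 0.57 for TUBA3E and 0.843 for TUBA3D, and between 70R and 25R it was 0.18 and 0.253. The pair was chosen after its values were seen.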
